A study of Mus musculus with 6 samples.

Results

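Mitochondrial ribosomal protein genes encode the protein part of the ribosome that works inside mitochondria. The genes described here are the protein-coding genes of mouse whose symbol is Mrpl or Mrps followed by a number and, where there is one, a letter from a to c. Of the 52636 genes counted, 78 met this rule. By textbook assignment, 51 of them encode proteins of the large (39S) subunit, including Mrps30 and Mrps18a, which carry a small subunit name, and 26 encode proteins of the small (28S) subunit. Mrps36 was kept apart, since its product is now known as a component of the 2-oxoglutarate dehydrogenase complex.

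RNA was compared between J110 and SSM3 cells, a pair of mouse mammary tumour lines studied as estrogen receptor positive models, with 3 biological replicates of each. J110 cells came from transgenic mice in which the MMTV LTR, a mammary-active viral promoter, drives an AIB1 cDNA, and SSM3 cells came from mammary tumours of 129SvEv mice. Each line stands for 1 origin and was untreated, and J110 cells were kept in less serum than SSM3 cells and with other supplements, so that line, origin and culture cannot be told apart. RNA was read by QuantSeq, which sequences tags from the 3′ ends of polyadenylated transcripts, and values are given as CPM, counts scaled to a common library size with TMM factors and expressed per 1e6 counts. A transcript yields tags from its 3′ end regardless of its length, so CPM were not divided by length.

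The mitochondrial ribosome translates the 13 protein-coding genes of the mitochondrial genome, which encode core subunits of the respiratory chain and the ATP synthase. Its rRNAs are transcribed in the mitochondrion, whereas all of its proteins are encoded in the nucleus, made in the cytosol and imported. Compared with the bacterial ribosome it has less RNA and more protein: many of its proteins have bacterial counterparts, and others are found only in mitochondria. Subunit assembly also needs imported GTPases, helicases and rRNA modifying enzymes. These genes are broadly expressed, in breast epithelium as in other tissues.

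The members lie on 17 chromosomes, with 11 on chromosome 11 and 8 on chromosome 17. To show what lies in front of genes that moved in either direction with high counts and no exon overlap with another counted gene, the 250 bases upstream of the RefSeq start are printed 5′ to 3′ (GRCm38.p6) for Mrpl34 (chr8:71464676-71464925, plus strand) and Mrps21 (chr3:95871515-95871764, minus strand), higher in SSM3, and for Mrpl20 (chr4:155802628-155802877, plus strand) and Mrps14 (chr1:160194965-160195214, plus strand), lower in SSM3. Capitals mark matches, on either strand, to the motifs searched, which were the ETS core CCGGAAG, the E-box CACGTG, the YY1 site AAGATGGC, the palindromic NRF1 site and the palindromic estrogen response element.
Mrpl34: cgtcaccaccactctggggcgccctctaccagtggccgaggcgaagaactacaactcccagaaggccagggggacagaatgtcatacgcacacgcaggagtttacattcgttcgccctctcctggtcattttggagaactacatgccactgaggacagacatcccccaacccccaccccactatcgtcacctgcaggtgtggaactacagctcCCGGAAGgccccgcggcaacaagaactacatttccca
Mrps21: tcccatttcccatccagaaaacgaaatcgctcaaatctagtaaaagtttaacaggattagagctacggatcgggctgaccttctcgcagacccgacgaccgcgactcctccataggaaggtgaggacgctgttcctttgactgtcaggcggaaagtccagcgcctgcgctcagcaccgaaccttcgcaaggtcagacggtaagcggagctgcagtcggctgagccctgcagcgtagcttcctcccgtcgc
Mrpl20: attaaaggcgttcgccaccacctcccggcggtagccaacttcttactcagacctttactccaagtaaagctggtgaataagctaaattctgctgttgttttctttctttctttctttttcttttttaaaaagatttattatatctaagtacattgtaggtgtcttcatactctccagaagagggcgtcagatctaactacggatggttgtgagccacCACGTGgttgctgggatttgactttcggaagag
Mrps14: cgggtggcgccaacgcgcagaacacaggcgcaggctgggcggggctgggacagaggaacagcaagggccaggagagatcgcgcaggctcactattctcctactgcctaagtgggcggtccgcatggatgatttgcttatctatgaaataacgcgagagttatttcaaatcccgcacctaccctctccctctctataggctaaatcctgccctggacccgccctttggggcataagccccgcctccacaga
The Mrpl34 sequence holds an ETS core and the Mrpl20 sequence holds an E-box, and the others hold none of these letters. The ETS core was found upstream of 18 of the 69 members with a sequence (26.1%), compared with 10.6% of 16478 protein-coding genes and 16.9% of those that were also tested. Among members it lay upstream of 12 of 45 called higher in SSM3 and 3 of 10 called lower, so it was present in both directions. The NRF1 site was found in 4.35% of members (1.26% of all genes, 2.0% of tested genes), the YY1 site in 5.80% (1.77%, 2.54%), the E-box in 7.25% (7.83%, 10.2%) and the estrogen response element in none (0.0546%, and no tested gene). A match describes letters in the window and is not a measured binding site.

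Total counts ranged from 5209740 to 5416305 in J110 and from 4200785 to 4792941 in SSM3, and 3 counts corresponded to between 0.578 and 0.668 CPM. Replicates were close, with a biological coefficient of variation of 8.30%. A ribosomal RNA locus on chromosome 17 took between 15.1% and 17.2% of counts in J110 but between 0.779% and 1.27% in SSM3, and transcripts of the mitochondrial genome took between 3.02% and 4.73% in all libraries. Of the epithelial markers, Krt8 averaged 1275 CPM in J110 and 2270 in SSM3 and Krt18 averaged 1430 and 970.0, whereas Epcam (0.681 and 507 CPM), Cdh1 (4.02 and 1374) and Krt19 (18.6 and 7412) were near 0 or far lower in J110. Fibroblast markers summed to between 0.398 and 1.98 CPM in any library, the leukocyte markers Ptprc, Cd3e and Itgam were at or near 0, Cd14 averaged 23.5 and 8.25 CPM, and the endothelial gene Cdh5 averaged 165 CPM in J110 and 0.142 in SSM3 while Pecam1, Kdr and Tie1 stayed near 0. Their part in the differences below was not tested. Ncoa3, which encodes AIB1, was counted 110, 106 and 102 times in J110 and 181, 199 and 186 times in SSM3. Tags from a cDNA transgene need not fall on the mouse gene, so these counts do not check the label.

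Most mitochondrial ribosomal protein genes were moderately higher in SSM3 than in J110. Of the 77 members that passed the filter on low counts, 52 (67.5%) were called higher in SSM3, 11 (14.3%) were called lower and 14 were not called (edgeR's quasi-likelihood test, Benjamini-Hochberg adjusted p below 0.05). The lines differed across the whole transcriptome, so the members are to be read against all 12284 genes tested, of which 38.6% were called higher, 39.2% lower and 77.9% in either direction. The share of members called in either direction (63 of 77, 81.8%) was thus near the background, and it was the balance between the directions that stood apart from it. The median log2 fold change (SSM3 over J110) was 0.47 for the members and -0.014 for all genes tested. No test compared the members with the other genes.

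**Figure D1:**
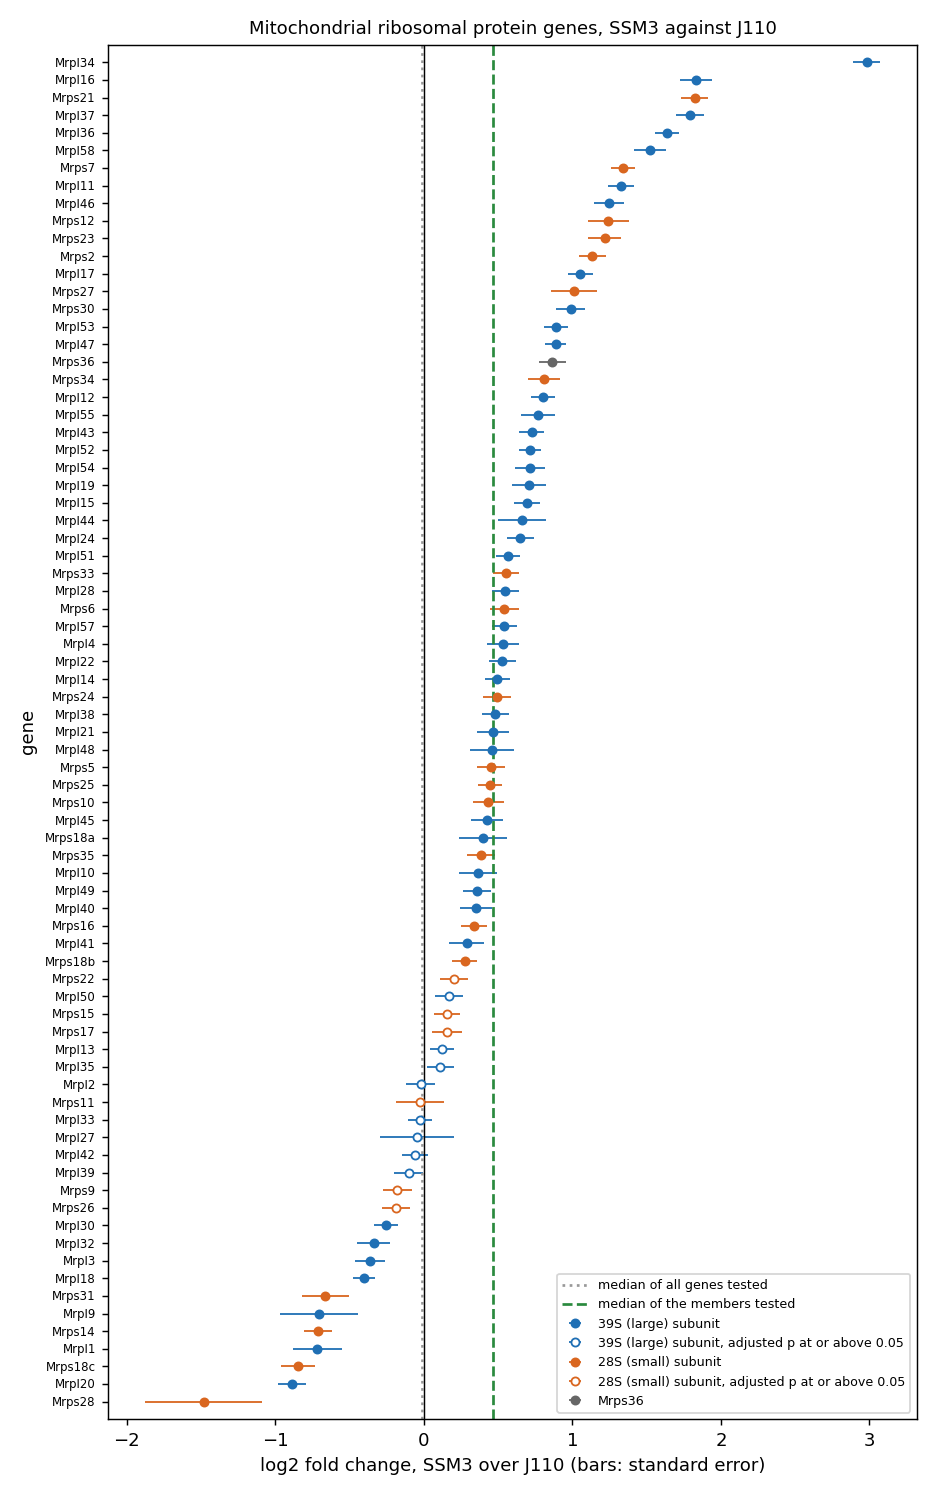
Log2 fold change (SSM3 over J110, horizontal axis) of the 77 members tested, ranked from the highest to the lowest, with standard errors as bars. Blue points are 39S genes, orange points 28S genes and the grey point Mrps36, and open points had an adjusted p at or above 0.05. The dashed line at 0.47 is the median of the members and the dotted line at -0.014 that of all genes tested, and 58 of the 77 points lie to the right of 0.

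The differences were small in size compared with those of other genes. Only 15 of the 77 members (19.5%) were called with a change over 2-fold, 14 higher and 1 lower in SSM3, whereas 43.7% of all genes tested were, and 37.8% of the 9063 genes with a mean of at least 10 CPM (of which 79.8% were called, 40.7% higher and 39.2% lower). The other 48 called members changed by at most 2-fold. Members also spread less around their median: their log2 fold changes had an interquartile range of 0.69, compared with 1.69 for all genes tested. That background includes genes with a mean under 10 CPM, and the range was not computed without them. The libraries of the lines did not overlap for 65 of the 77 members, 50 called higher, 11 called lower and 4 not called, and for 79.6% of all genes tested. Within a line the members were reproducible, with a median coefficient of variation of 6.26% in J110 and 6.20% in SSM3.

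**Figure D2:**
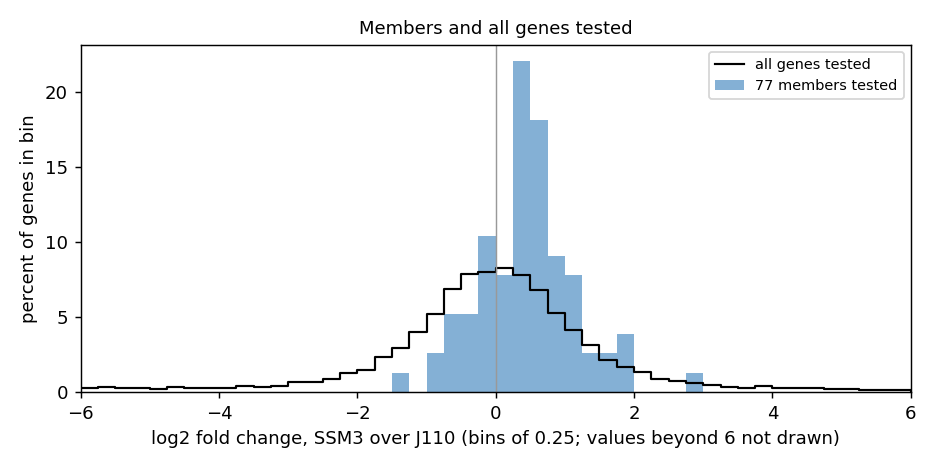
Share of genes (percent, vertical axis) by log2 fold change (SSM3 over J110, horizontal axis, bins of 0.25) for the 77 members (blue bars) and for all 12284 genes tested (black line). The members form a narrower peak to the right of 0, with an interquartile range of 0.69 compared with 1.69 for all genes tested, which include genes with a mean under 10 CPM.

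Summed over all 78 members, expression was 5028, 4942.2 and 4916.1 CPM in the J110 libraries and 7432.1, 7446.3 and 7685.5 CPM in the SSM3 libraries. Every SSM3 library lay above every J110 library, and the means (4962.1 ± 58.5 and 7521.3 ± 142 CPM, SD, n = 3) stood in a ratio of 1.52. With 3 libraries a line, an exact two-sided permutation test cannot go below p = 0.1, which is the value it gave. As a share of all counts before scaling, the members took 0.467% ± 0.0147 in J110 and 0.799% ± 0.00587 in SSM3 (SD, n = 3). In bulk RNA, more cells expressing a gene and more RNA per cell cannot be told apart. Without the ribosomal RNA locus, 52 members were called higher and 11 lower and the ratio of sums was 1.52, and the shares of all counts were not recomputed. A pair of genes carried much of the summed difference of 2559.2 CPM. Mrpl34 made up 18.2% of it and Mrps21 11.7%, and the ratio over the other 76 members was 1.38 (4776.7 ± 51.8 and 6570.3 ± 56.7 CPM).

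Transcripts of both subunits were more often called higher than lower. Among the 50 large subunit genes tested, 35 were called higher in SSM3, 7 lower and 8 were not called, with a median log2 fold change of 0.51. Among the 26 small subunit genes, 16 were called higher, 4 lower and 6 were not called, with a median of 0.41. Summed 39S expression averaged 3374 ± 35.8 CPM in J110 and 5184 ± 88.9 in SSM3, and summed 28S expression 1519 ± 24.8 and 2210 ± 67.8 CPM (SD, n = 3). The ratio of the 39S to the 28S sum was 2.20, 2.25 and 2.21 in J110 and 2.35, 2.38 and 2.31 in SSM3, which did not overlap (exact permutation p = 0.1, the smallest possible). This order depended on which genes were summed. Without Mrpl34 the ratios were 2.16, 2.20 and 2.17 in J110 and 2.12, 2.14 and 2.05 in SSM3, lower in SSM3. Without both Mrpl34 and Mrps21 they averaged 2.36 in J110 and 2.59 in SSM3, higher in SSM3 again. No stable shift between the subunits was thus seen.

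Split by ancestry after the ribosome nomenclature, which names Mrps18a and Mrps18b as mitochondria specific, the 21 large subunit proteins without a bacterial counterpart included no gene called lower. Of these 21 genes, 18 were called higher and 3 were not called (Mrpl39, Mrpl42 and Mrpl50), with a median log2 fold change of 0.54. Of the 29 tested large subunit genes with a bacterial counterpart, 17 were called higher and 7 lower, with a median of 0.49. In the small subunit, 9 of 16 genes with a bacterial counterpart were called higher and 3 lower, and 7 of 10 without one were called higher and 1, Mrps31, lower. Of the 11 members called lower, 10 lay in the classes with a bacterial counterpart. These classes also held most of the tested members (29 and 16, compared with 21 and 10 without a counterpart). Every class was called lower less often than all genes tested (39.2%). Among the 10, the calls of Mrpl3, Mrpl9, Mrpl30, Mrpl32 and Mrps28 were lost under some of the alternatives described below. Whether the ancestry classes differ was not tested.

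**Figure D3:**
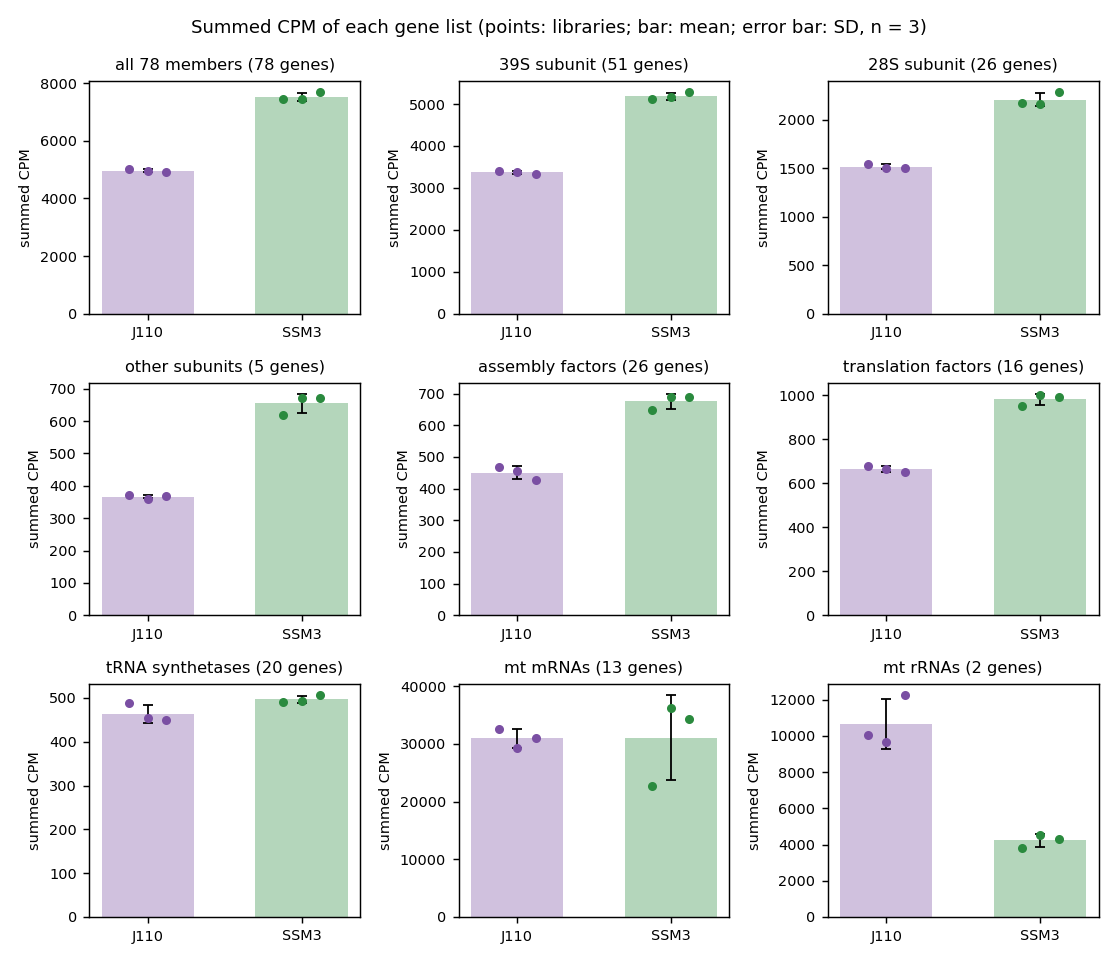
Summed CPM (vertical axis, starting at 0) in the J110 (purple) and SSM3 (green) libraries for the members, their subunits and the other gene lists of mitochondrial translation. Points are libraries, bars are means and error bars are the SD (n = 3). The 3 SSM3 libraries lie above the 3 J110 libraries in the panels of the members (ratio 1.52) and of both subunits, the mitochondrial mRNAs overlap between the lines, and the mitochondrial rRNAs are lower in SSM3.

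Mrpl34 showed the largest difference of all members. It encodes a small protein of the large subunit with a bacterial counterpart (ENSMUSG00000034880, chr8:71464959-71465747, plus strand). Its level was 67.9, 71.8 and 63.4 CPM in J110 and 490.6, 524.1 and 589.4 CPM in SSM3 (log2 fold change 2.98, standard error 0.089, edgeR adjusted p = 2.13e-14). The 3 SSM3 libraries were thus all far above the J110 libraries, and Mrpl34 went from a level not far above the median member in J110 (55.6 CPM) to the highest of all members in SSM3 (median member 76.4 CPM). Its exons are not shared with another counted gene.

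Mrps21, a small subunit protein that also has a bacterial counterpart (ENSMUSG00000054312, chr3:95862634-95871519, minus strand), was expressed at 123.6, 121.0 and 108.3 CPM in J110 and 375.4, 406.5 and 467.2 CPM in SSM3. The log2 fold change was 1.82 (standard error 0.090, edgeR adjusted p = 1.42e-11), and it was the second most abundant member in SSM3. Mrpl16, a large subunit protein at the peptidyl transferase region (chr19:11770391-11774960), had 22.9, 30.5 and 26.3 CPM in J110 and 90.4, 99.4 and 93.7 CPM in SSM3 (log2 fold change 1.83, standard error 0.11, adjusted p = 1.23e-10). Mrpl37, which is found only in mitochondria (chr4:107055874-107066868), had 31.2, 29.9 and 31.5 CPM in J110 and 104.0, 115.1 and 101.5 CPM in SSM3 (log2 fold change 1.79, standard error 0.094, adjusted p = 3.04e-11). All 3 genes were free of exon overlaps with counted genes, and their groups of libraries lay apart.

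Mrpl58 encodes a peptidyl-tRNA hydrolase that releases stalled chains and is built into the large subunit. Its level was 30.1, 24.3 and 25.2 CPM in J110 and 80.6, 69.7 and 79.2 CPM in SSM3 (log2 fold change 1.52, standard error 0.11, edgeR adjusted p = 1.83e-09). Mrpl36, a further conserved large subunit protein, was at 61.9, 59.9 and 57.2 CPM in J110 and 186.4, 191.8 and 179.9 CPM in SSM3 (log2 fold change 1.64, standard error 0.081, adjusted p = 1.59e-11). Mrpl36 shares 30 exon bases with Ndufs6 on the opposite strand, which held 6247 counts to the 3542 of Mrpl36 and also rose (log2 fold change 1.85), so that reads of the pair cannot be told apart where they overlap. The remaining members called over 2-fold higher were Mrps7 (log2 fold change 1.34), Mrpl11 (1.33), Mrpl46 (1.25), Mrps12 (1.24), Mrps23 (1.22), Mrps2 (1.13), Mrpl17 (1.05) and Mrps27 (1.01). Mrps7, with 3192 counts, shares exon bases on the opposite strand with Mif4gd (1580 counts, log2 fold change 2.24) and Gga3 (733 counts, 0.24), and Mrpl46, with 1516 counts, with Mrps11 (734 counts, -0.02), so that their values carry the same limit as that of Mrpl36. Mrpl11 belongs to the stalk base that contacts elongation factors, Mrps12 lies at the decoding centre and Mrps7 in the head of the small subunit.

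The most abundant members did not move alike. On the CPM scale, the 4 members with the highest mean over all libraries were Mrpl34, Mrps21, Mrpl52 and Mrpl18, of which Mrpl34 and Mrps21 ranked there through their level in SSM3. Mrpl52, a large subunit protein specific to mitochondria, had 188.9, 173.7 and 177.8 CPM in J110 and 277.5, 297.3 and 313.4 CPM in SSM3 (log2 fold change 0.72, standard error 0.075, edgeR adjusted p = 1.99e-07). Mrpl18, which relates to the bacterial protein that binds 5S rRNA, was the most abundant member in J110 and went the other way, with 242.3, 231.8 and 236.2 CPM in J110 and 171.7, 191.3 and 175.1 CPM in SSM3 (log2 fold change -0.40, standard error 0.074, adjusted p = 1.08e-04). It shares exon bases with Tcp1 on the opposite strand, which held 5949 counts to the 6113 of Mrpl18 and had a log2 fold change of -0.25. Mrpl12, of the stalk that recruits translation factors and also a partner of the mitochondrial RNA polymerase, had a log2 fold change of 0.80, and Mrpl47 one of 0.89. Mrpl47, with 6021 counts, shares exon bases on the opposite strand with Ndufb5 (8393 counts, log2 fold change 1.51) and Actl6a (4215 counts, 1.11), and Mrpl12, with 5296 counts, with Gm16755 (1114 counts, 0.69). The 5 most abundant members of each line were different sets. In J110 they were Mrpl18, Mrpl52, Mrpl33, Mrpl47 and Mrpl12, with 17% of the summed CPM, and in SSM3 they were Mrpl34, Mrps21, Mrpl52, Mrpl47 and Mrpl12, with 23.2%.

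**Figure D4:**
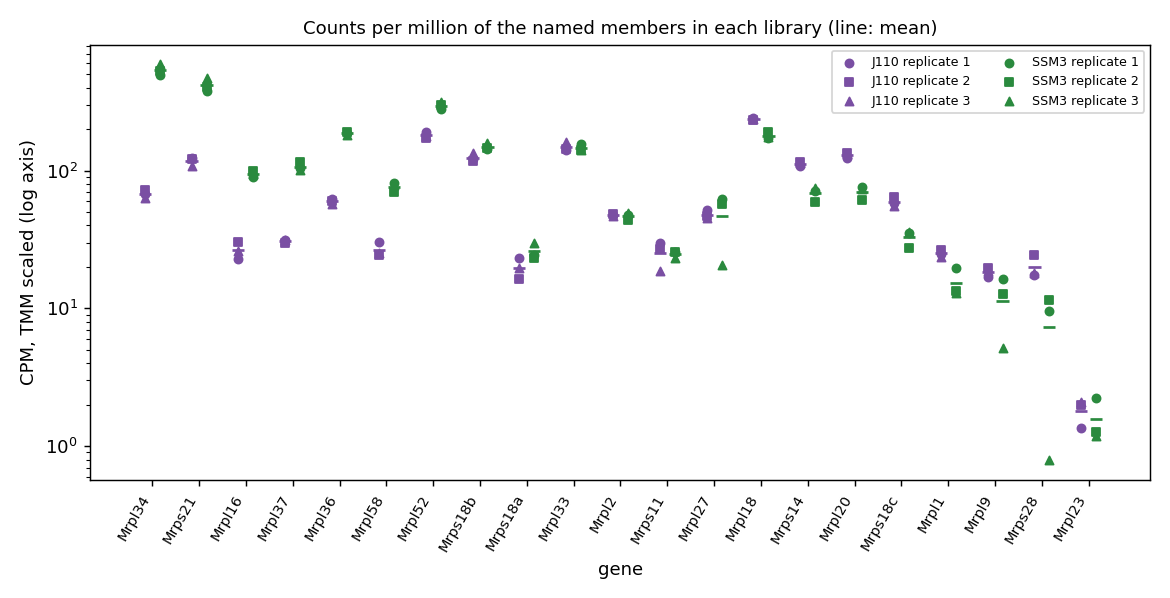
CPM after TMM scaling (logarithmic vertical axis) of the members named by the rule in each J110 (purple) and SSM3 (green) library, with the mean as a short line. The libraries lie apart from Mrpl34 to Mrps18b and from Mrpl18 to Mrps28 and overlap for Mrpl33, Mrpl2, Mrps11, Mrpl27 and Mrpl23. SSM3 replicate 3 (triangles) lies below the others for Mrpl27, Mrpl9 and Mrps28.

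A minority of members ran against the rest. Mrpl20, which has a bacterial counterpart in the large subunit (chr4:155802878-155809975), was at 123.6, 133.9 and 131.3 CPM in J110 and 75.9, 60.9 and 73.2 CPM in SSM3 (log2 fold change -0.89, standard error 0.094, edgeR adjusted p = 2.30e-07). The small subunit gene Mrps14 (chr1:160195215-160202170) was at 108.7, 115.5 and 112.9 CPM in J110 and 71.3, 59.0 and 75 CPM in SSM3 (log2 fold change -0.71, standard error 0.095, adjusted p = 3.65e-06). Mrpl1, of the mobile stalk at the exit site, was at 24.9, 26.7 and 23.6 CPM in J110 and 19.6, 13.4 and 12.9 CPM in SSM3 (log2 fold change -0.72, standard error 0.17, adjusted p = 8.84e-04). For these 3 genes the J110 libraries were all above the SSM3 libraries, and none shares exons with a counted gene. The other members called lower with smaller or less precise changes were Mrps31 (log2 fold change -0.66), Mrpl3 (-0.36), Mrpl32 (-0.34) and Mrpl30 (-0.26), besides Mrpl18, Mrps18c, Mrps28 and Mrpl9. The call of Mrpl32 was lost with DESeq2, with library size only and without SSM3 replicate 3 (adjusted p = 0.0596, with alternatives from 0.00662 to 1), and those of Mrpl3 and Mrpl30 with library size only.

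The largest decrease, that of Mrps28, rested partly on 1 library. Mrps28 (chr3:8802146-8923918, minus strand) had 17.5, 24.3 and 18.2 CPM in J110 and 9.58, 11.47 and 0.796 CPM in SSM3 (91, 123, 87 and 43, 54, 4 counts). The log2 fold change was -1.48 (standard error 0.39, edgeR adjusted p = 0.00271). Without SSM3 replicate 3 the log2 fold change was -0.92 and without SSM3 replicate 2 it was -1.99, and its call was lost with DESeq2 (adjusted p = 0.163, the highest of the alternatives, with 5.02e-13 as the lowest, from the filter of 1 count in any library). Mrpl9 showed the same library standing low, with 16.8, 19.8 and 18.6 CPM in J110 and 16.3, 12.7 and 5.17 CPM in SSM3 (log2 fold change -0.71, standard error 0.26, adjusted p = 0.0220). Its call was lost without SSM3 replicate 3 (log2 fold change -0.34, adjusted p = 0.0883), without J110 replicate 2 (0.0820) or J110 replicate 3 (0.0621) and with library size only, in a range over the alternatives from 4.94e-04 to 0.237. Mrpl27, of the peptidyl transferase region, was at 51.5, 46.5 and 45.3 CPM in J110 and 61.9, 57.3 and 20.5 CPM in SSM3. With all libraries it was not called (log2 fold change -0.05, standard error 0.25, adjusted p = 0.870), and without SSM3 replicate 3 it was called higher (0.32, adjusted p = 0.01, the lowest of the alternatives, which reached 1). Eme1, which shares exon bases with Mrpl27 on the opposite strand, held 4998 counts to its 1370.

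These 3 were the only members in which 1 library lay at least 2-fold from both others of its line, a description made after the values were seen. Among the 9063 genes with a mean of at least 10 CPM, 300 (3.31%) stood low in SSM3 replicate 3 in this way, and between 0.596% and 1.61% stood low or high in any other single library or direction. Without SSM3 replicate 3, 51 members were called higher and 10 lower, with a median log2 fold change of 0.46.

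Some members were at nearly the same level in both lines. Among the smallest differences were those of Mrpl2, near the peptidyl transferase centre (47.2, 48.3 and 46.7 CPM in J110 and 47.2, 43.7 and 49.1 CPM in SSM3, log2 fold change -0.02, standard error 0.096), and of Mrpl33 (141.9, 143.0 and 161.1 CPM in J110 and 155.0, 141.4 and 141.5 CPM in SSM3, log2 fold change -0.03, standard error 0.082). The ranges of the lines overlapped for both. Mrps11, of the small subunit platform, had 29.9, 27.1 and 18.6 CPM in J110 and 25.6, 25.7 and 23.3 CPM in SSM3 (log2 fold change -0.02, standard error 0.16), although it shares 173 exon bases with Mrpl46 on the opposite strand, which rose with a log2 fold change of 1.25. The remaining members not called were Mrpl13, Mrpl35, Mrpl39, Mrpl42, Mrpl50, Mrps9, Mrps15, Mrps17, Mrps22 and Mrps26, with log2 fold changes between -0.19 and 0.20. A missed threshold does not show that these genes were equal.

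Mrpl23, a protein of the tunnel exit, could not be tested. It was counted 7, 10 and 10 times in J110 and 10, 6 and 6 times in SSM3, or 1.35, 1.98 and 2.09 CPM compared with 2.23, 1.27 and 1.19 CPM, the lowest level of all members in either line. The next lowest member in J110, Mrps27, averaged 10.2 CPM. All 78 members had counts in every library.

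The 3 paralogues of Mrps18 went in different directions. Mrps18c, of the small subunit (chr5:100798627-100804471), fell from 58.2, 63.9 and 55.1 CPM in J110 to 35.2, 27.6 and 35.8 CPM in SSM3 (log2 fold change -0.85, standard error 0.12, edgeR adjusted p = 4.51e-06). Mrps18b, also of the small subunit, was at 120.5, 117.1 and 133.6 CPM in J110 and 142.7, 146.5 and 159.2 CPM in SSM3 (log2 fold change 0.27, standard error 0.083, adjusted p = 0.00666). Mrps18a, which sits in the large subunit, was at 23.3, 16.2 and 19.6 CPM in J110 and 24.5, 23.4 and 30.05 CPM in SSM3 (log2 fold change 0.40, standard error 0.16, adjusted p = 0.0314). The highest J110 and lowest SSM3 library of Mrps18a nearly touched (23.33 and 23.36 CPM), and its call was lost with DESeq2 (adjusted p = 0.0884) and without J110 replicate 2 (0.171), J110 replicate 3 (0.0809) or SSM3 replicate 3 (0.124), in a range over the alternatives from 0.00398 to 0.877. Mrps18b was the paralogue with the highest level in both lines, on the CPM scale.

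Besides Mrps18a, Mrpl9 and Mrpl32, a call was lost when 1 library was left out for Mrpl10 (without J110 replicate 3 or SSM3 replicate 1, adjusted p up to 0.114), Mrpl41 (without J110 replicate 1 or 3 or SSM3 replicate 2 or 3, up to 0.177) and Mrpl48 (without J110 replicate 2, 0.0751). Mrpl10 and Mrpl41 were also the only called members whose libraries overlapped between the lines. Their log2 fold changes with all libraries were 0.37 and 0.29, and that of Mrpl48 was 0.46. Mrpl48, with 794 counts, shares exon bases with Rab6a (4742 counts, log2 fold change -0.25), and Mrpl10, with 1751, with Gm11574 (799 counts, 1.10).

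Overlapping genes limit some of these values, since the strand setting of the counting is not given in the sources used here. Of the 78 members, 33 share exon bases with another annotated gene, and for 23 the partner held at least 10% as many counts as the member. Of these 23, 20 were called higher, 1 was called lower and 2 were not called. Mrps18b had 625, 592, 640, 641, 690 and 800 counts and its opposite-strand neighbour Gm16279 had 627, 591, 639, 640, 688 and 799, nearly the same numbers, as when reads are counted for both genes without regard to strand. Likewise Mrpl53 had 3848 counts and Gm42688, on the same strand, 3853. Without the 32 members whose partner had any count and the untested Mrpl23, 45 members remained, of which 29 (64.4%) were called higher and 7 (15.6%) lower, with a median log2 fold change of 0.43 and a ratio of sums of 1.59. The 5 processed pseudogenes named after members held 37 counts together, 31 on Mrpl48-ps and 6 on Mrpl23-ps1, and reads that fit both a member and a pseudogene were not measured.

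Members were often paired head to head with another gene. A protein-coding gene starting within 1000 bases on the opposite strand and pointing away was present for 18 of the 78 members (23.1%), compared with 1480 of 21896 protein-coding genes (6.76%), with starts between 26 and 935 bases apart. The 6.76% covers protein-coding genes whether or not they were tested, and the share over tested genes alone was not taken. In 15 of these pairs both genes were tested, and in 8 both were called. In 6 of the 8 both genes went the same way, such as Mrps27 (1.01) with the RNA processing gene Ptcd2 (1.15), Mrps12 (1.24) with the seryl-tRNA synthetase Sars2 (1.07), Mrpl51 (0.57) with the condensin subunit Ncapd2 (1.48) and Mrpl30 (-0.26) with Mitd1 (-0.44), all as log2 fold changes. In the other 2 they went opposite ways, Mrpl32 (-0.34) with the proteasome subunit Psma2 (0.87) and Mrpl57 (0.54) with the spindle gene Ska3 (-1.18). These pairs were looked at after the values were seen, the same counts were not taken for pairs of other genes, and with 77.9% of all genes called nothing is read from them.

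The direction of the members also varied with the chromosome, and so did that of all genes. On chromosome 11, 10 of 11 members were called higher (median log2 fold change 0.53), where 46.4% of all tested genes were higher (median 0.25). All 5 members on chromosome 19 (median 0.72) and 4 of 5 on chromosome 7 (median 1.05) were called higher, where 55.3% (median 0.40) and 51.8% (median 0.42) of all tested genes were. The share of all tested genes called higher was largest on chromosome 8 (56.0%, median 0.47). Of its 2 members, Mrpl34 was called higher and Mrps31 lower. On chromosome 14 all 3 members were called higher (median 0.54), where 24.3% of all tested genes were (median -0.61). On chromosome 5 none of 4 members was called higher and 2, Mrps18c and Mrpl1, were called lower (median -0.37), near the 48.4% of all tested genes called lower there (median -0.27). No copy number was measured, and the part of such regional shifts in the members' differences was not tested.

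**Figure D5:**
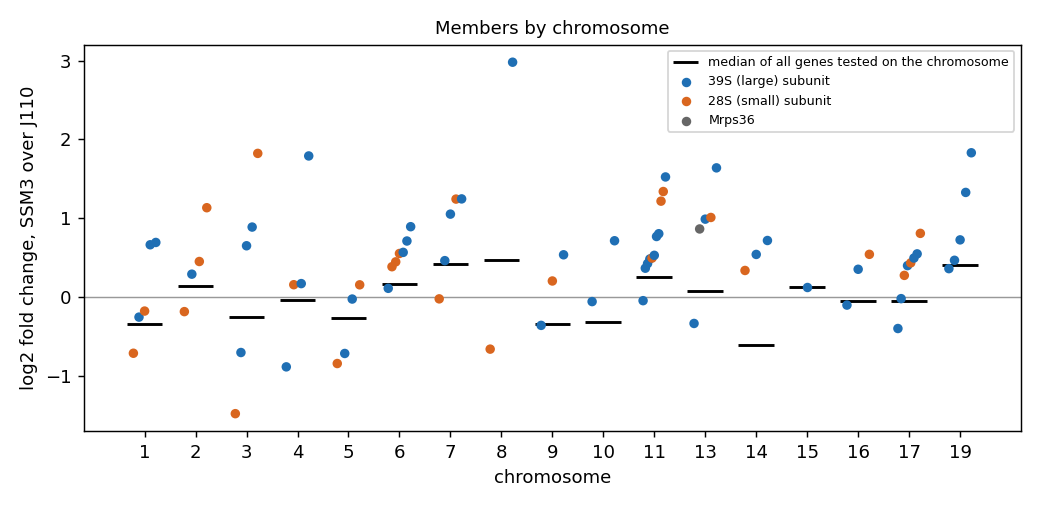
Log2 fold change (SSM3 over J110, vertical axis) of each member by chromosome (horizontal axis), with 39S genes in blue, 28S genes in orange and Mrps36 in grey. Black lines are the medians of all genes tested on the chromosome. Members lie mostly above the line on chromosomes 11, 14 and 17, and on chromosome 5 they lie around it.

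The mitochondrial ribosomal proteins that carry other names moved with the members. All 5 were called higher in SSM3, with a median log2 fold change of 0.85 and a ratio of sums of 1.79. Chchd1 averaged 112 ± 5.62 CPM in J110 and 242 ± 21.4 in SSM3 (log2 fold change 1.12, standard error 0.084, edgeR adjusted p = 3.25e-09), Aurkaip1 42.2 ± 5.45 and 75.8 ± 1.80 CPM (0.85, adjusted p = 9.38e-07) and the GTP binding protein Dap3 70.2 ± 5.51 and 115 ± 14.8 CPM (0.71, adjusted p = 9.27e-06), all of the small subunit. Gadd45gip1, of the large subunit, averaged 53.9 ± 2.36 and 121 ± 7.67 CPM (1.17, adjusted p = 3.29e-09). Ptcd3, a pentatricopeptide repeat protein of the small subunit, changed least (88.5 ± 2.49 and 101 ± 2.62 CPM, 0.19, adjusted p = 0.0434). The Ptcd3 call was lost with DESeq2 (adjusted p = 0.102) and without any 1 library except SSM3 replicate 2 (adjusted p up to 0.125, with all alternatives from 7.41e-04 to 1).

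Genes for building the mitochondrial ribosome were more often called higher than lower. Of 26 assembly factors, 12 (46.2%) were called higher, near the 38.6% of all genes tested, 4 (15.4%, where 39.2% of all genes were) lower and 10 were not called, with a median log2 fold change of 0.41 and sums of 451 ± 21.1 CPM in J110 and 675 ± 24.4 CPM in SSM3 (ratio 1.5, exact permutation p = 0.1, the smallest possible). Mpv17l2, an inner membrane protein needed for assembly, rose most (33.4, 25.3 and 28.8 CPM in J110 and 105.3, 118.1 and 116.4 CPM in SSM3, log2 fold change 1.96, edgeR adjusted p = 4.80e-11). Rbfa, which binds the small subunit rRNA during maturation, had a log2 fold change of 1.14 (adjusted p = 1.47e-06). The 4 called lower were the GTPase Noa1 (-0.43, adjusted p = 0.00945) and, each with a mean under 10 CPM, Mterf3 (6.06 and 1.42 CPM, -2.09, adjusted p = 1.30e-05), the GTPase Gtpbp10 (8.69 and 2.53 CPM, -1.77, adjusted p = 1.31e-05) and Mettl17 (10.7 and 6.36 CPM, -0.76, adjusted p = 0.0123).

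The translation factors were called in both directions at shares near those of all genes. Of 16 translation factors, 5 (31.2%) were called higher and 7 (43.8%) lower, where 38.6% and 39.2% of all genes tested were, with a median log2 fold change of -0.02. Their sums stood in a ratio of 1.48, to which 3 abundant genes added most, the initiation factor Mtif3 (means of 77.4 CPM in J110 and 192 in SSM3) and the mRNA-binding partners Slirp (181 and 290 CPM) and Lrpprc (115 and 211 CPM). The elongation factor Tufm (1.71, edgeR adjusted p = 2.96e-07) and the membrane insertase Oxa1l (1.34, adjusted p = 7.33e-10) were higher in SSM3, whereas the initiation factor Mtif2 (-1.01, adjusted p = 1.10e-05) and the elongation factor Gfm1 (-0.77, adjusted p = 2.41e-04) were lower. Of 20 genes for charging mitochondrial tRNAs, 8 (40% of them, near the 38.6% of all genes) were called higher and 4 (20%, where 39.2% of all genes were) lower, with a median of 0.01 and a ratio of sums of 1.07. These included Gatb, of the amidotransferase that makes glutaminyl-tRNA (1.48), and the glutamyl-tRNA synthetase Ears2 (1.11) among those higher, and the asparaginyl-tRNA synthetase Nars2 (-2.44) and the methionyl-tRNA synthetase Mars2 (-1.13) among those lower.

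Of the mitochondrial genome's 13 protein-coding genes, 11 were tested, 4 (36.4%, near the 38.6% of all genes tested) were called higher and 2 (18.2%, where 39.2% of all genes were) lower, with a median log2 fold change of -0.19. Their sums were 32595, 29267 and 31067 CPM in J110 and 22689, 36229 and 34345 CPM in SSM3, which overlapped (ratio 1.0, exact permutation p = 1.0). mt-Atp8 (0.86) and mt-Atp6 (0.75), which encode ATP synthase subunits from overlapping reading frames, were called higher, and mt-Nd6 (-1.64) and mt-Co1 (-1.37), of respiratory complexes I and IV, lower. The large rRNA mt-Rnr2 averaged 9452 ± 1303 CPM in J110 and 2975 ± 312 in SSM3 (log2 fold change -1.67, edgeR adjusted p = 2.19e-10), and the small rRNA mt-Rnr1 was not called (1202 ± 100 and 1255 ± 73.2 CPM, log2 fold change 0.06, adjusted p = 0.460). Capture by oligo(dT) samples mitochondrial RNA by its poly(A) tails and A-rich stretches, so these CPM need not follow the amount of each RNA.

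Of 13 tested genes for mitochondrial transcription and biogenesis, 4 (30.8%) were called higher and 6 (46.2%) lower, near the 38.6% and 39.2% of all genes tested. The coactivator Ppargc1a (8.27 ± 1.65 CPM in J110 and 27.4 ± 3.36 in SSM3, log2 fold change 1.73, edgeR adjusted p = 1.39e-07) and the nuclear receptor Esrra (70.0 ± 2.15 and 143 ± 21.3 CPM, 1.03, adjusted p = 1.03e-07) were higher in SSM3. Gabpa, the DNA-binding subunit of an ETS family factor, was lower (30.6 ± 4.44 and 19.8 ± 3.06 CPM, -0.62, adjusted p = 0.00142), as was Yy1 (112 ± 5.44 and 80.1 ± 1.31 CPM, -0.48, adjusted p = 4.94e-05).

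Mrps36, which is matched by name but is not counted with either subunit, was also higher in SSM3. Its level was 70.0, 69.8 and 69.1 CPM in J110 and 140.5, 125.9 and 114.0 CPM in SSM3, with no overlap between the lines (log2 fold change 0.86, standard error 0.091, edgeR adjusted p = 2.36e-07).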

How the data were processed

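RNA of 3 biological replicates each of J110 and SSM3 cells was sequenced from 3′ ends. The authors deposited raw counts per Ensembl gene, with no normalisation; the submitters' processing notes name cutadapt 2.1, HISAT2 2.0.4, featureCounts (Subread 2.0.0) and mm10. The strand setting and the treatment of reads on several genes are not given in the sources used here. Of the 52636 genes, 52489 (99.7%) matched GENCODE M21, from which symbols, biotypes and mm10 coordinates came.

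After filterByExpr and TMM scaling, genes were compared with edgeR's quasi-likelihood test (version 4.0.16, R 4.3.3, limma 3.58.1), with Benjamini-Hochberg adjustment over all 12284 genes tested and a threshold of 0.05. Standard errors are the size of the log2 fold change divided by the square root of F. Sums of CPM were compared with exact two-sided permutation tests. Counts and floors cover counting error only. The script was tested on simulated data. Exon overlaps were found with bedtools 2.31.1, and promoters are from RefSeq (GRCm38.p6).

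The members and gene lists were chosen with earlier results of these data known. Named members are the 6 with the largest change in each direction with at least 10 CPM and no overlap between the lines, the 4 with the highest mean, the 4 with the smallest change, the Mrps18 paralogues and the untested member. In each other list, the 2 called genes with the largest change in each direction and at least 10 CPM were named, whether or not the lines overlapped, besides all proteins named otherwise. Mtif3, Slirp, Lrpprc, mt-Rnr1, Mrps36, Mterf3, Gtpbp10, Mettl17, members over 2-fold and genes in pairs or overlaps were named after their values were seen. Alternatives were DESeq2 1.42.0, limma-voom, other scalings, filters and thresholds, a block for the replicate number, overlapping members left out and each library left out. Those without Mrpl34 and Mrps21 were added after the data were seen.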

Additional observations from a re-analysis of the deposited data

How the results depend on the processing

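The balance of members towards SSM3 held under every alternative run, with between 49 and 58 called higher and between 7 and 12 called lower, other than for a fold above 1.5 with glmTreat (23 and 3) and without members that share exons (29 and 7 of 45, median log2 fold change 0.43, ratio of sums 1.59). DESeq2 called 50 higher and 9 lower (median 0.47). Of the 63 called members, 54 kept their call at the 0.05 threshold under every test, scaling, filter and set of libraries run in which they were tested, apart from glmTreat, and none changed sign. With library size only, the median of all genes tested moved from -0.014 to 0.16, 58 members were higher and 7 lower, their median was 0.64, 0.48 above that of all genes as with TMM, and the ratio of sums was 1.71. Their median was 0.43 with upper quartile scaling and 0.48 with a filter of 1 count in any library. Leaving out each library gave between 49 and 51 higher, 10 or 11 lower, medians from 0.46 to 0.49 and ratios of sums from 1.5 to 1.53. The ratio of sums without Mrpl34 and Mrps21 was 1.38. The 39S to 28S ratio, SSM3 minus J110, was 0.13 with all members, -0.072 without Mrpl34 and 0.23 without both, so its sign depended on which of these genes were summed.

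Library size only moves all genes upwards by the shift above, so members near 0 changed sign by its construction. Of the members not called, 6 changed sign. These were Mrpl39 (0.074) and Mrpl42 (0.12) with library size only, Mrpl2 (0.15 with library size only and from -0.059 to 0.030 when 1 library was left out, positive without SSM3 replicate 2), Mrps11 (0.15 with library size only and from -0.21 to 0.11 when 1 library was left out, positive without J110 replicate 1 or 2 or SSM3 replicate 3, 0.11, 0.021 and 0.023), Mrpl33 (0.15, and with 1 library left out 0.024 without J110 replicate 3 and 0.0020 without SSM3 replicate 2) and Mrpl27 (0.13, and from -0.30 to 0.32 when 1 library was left out, positive without SSM3 replicate 3), as log2 fold changes.

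Replicate numbers did not pair the samples, as deviations of same-numbered libraries correlated at between 0.012 and 0.027. With the replicate number as a block, 52 members were called higher and 11 lower (median 0.47), and Ptcd3 was not called (adjusted p = 0.0622). Each line has 3 libraries. The floor of 3 counts (between 0.578 and 0.668 CPM) was a set value and not a measured limit of detection. The filter on low counts lay higher, since Mrpl23, with between 6 and 10 counts in each library, could not be tested.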
